A study of Mus musculus with 227 samples.

Results

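The 36 genes described here encode receptors and transporters through which many of the screened drugs act: 11 serotonin receptors, 7 adrenergic, 5 muscarinic, 4 dopamine, 3 histamine and 3 opioid receptors, and 3 plasma membrane amine transporters. They were chosen by gene symbol as drug targets and not by how they moved, though earlier results of these data were known. Each symbol matched 1 row among the 31689 genes of the count table. The data are RNA-seq counts from primary mouse cortical cultures, prepared from embryonic day 16.5 cortex of F1 embryos of an FVB/N by C3B6F1 cross and kept for 21 days in vitro. In all, 218 libraries came from cultures given 1 drug each for 8 h and 9 from cultures given the vehicle, 0.2% DMSO. Each drug has 1 library, the labels give no doses, and they do not say whether libraries came from separate preparations. The p-values therefore measure the spread between these libraries, which may be partly technical. Every library name also carries 1 of 9 leading numbers, called run codes here although the labels do not say what they stand for, and 3 of them hold no vehicle.

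The amine transmitters noradrenaline, dopamine, serotonin, histamine and acetylcholine reach the cortex largely through axons of cells that lie below it. They act there on G protein-coupled receptors of the target cells. Gq/11-coupled receptors release calcium through phospholipase C, Gs-coupled receptors raise cyclic AMP and Gi/o-coupled receptors lower it. The serotonin receptor encoded by Htr3a is a ligand-gated ion channel, and the transporters Slc6a2, Slc6a3 and Slc6a4 clear noradrenaline, dopamine and serotonin and sit mainly on the releasing cells. Opioid receptors are Gi/o-coupled receptors for peptides and are included because screened drugs bind them.

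Library totals were 22019878 to 65189712 counts, and those of the 9 vehicles 31401522 to 43766202. Levels are given as CPM, counts scaled to a common library total with trimmed mean of M-values (TMM) factors, and levels of different genes are compared only as RPKM, the CPM per kilobase of gene length. A member is called expressed at a vehicle mean of 1 CPM or more, low from 0.1 to under 1 CPM and near 0 under 0.1 CPM. Markers fixed for the cell types showed a culture with neurons, astrocytes and other cells. All 6 excitatory, 7 inhibitory, 6 general neuronal and 6 astrocyte markers were expressed. So were all 4 oligodendrocyte precursor markers (summed to 230 to 381 CPM) and all 6 mural and fibroblast markers (43.0 to 82.4 CPM). Of the oligodendrocyte markers 3 of 5 were expressed, and of the microglia markers 2 of 5. Endothelial markers summed to 0.741 to 1.75 CPM. Of 8 markers of monoaminergic and cholinergic neurons 1 was expressed, the tyrosine hydroxylase gene Th at 1.79 ± 0.389 CPM (SD, n = 9), and the 8 together summed to 3.46 to 5.765 CPM.

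In vehicle cultures 26 of the 36 members (72.2%) were expressed, beside 58.0% of all protein-coding genes and 41.1% of all genes. All 11 serotonin and all 3 histamine receptors were expressed, as were 6 of 7 adrenergic and 4 of 5 muscarinic receptors. Only Drd2 of the 4 dopamine receptors and Oprd1 of the 3 opioid receptors reached 1 CPM, and none of the 3 transporters did. Per length, the muscarinic receptors summed to 35.6 ± 5.31 RPKM, the adrenergic to 30.3 ± 2.71 and the serotonin receptors to 29.0 ± 3.83 (SD, n = 9). The ranges of these 3 families over the vehicles overlapped. Histamine receptors summed to 13.7 ± 2.699 RPKM, dopamine receptors to 6.02 ± 1.399, opioid receptors to 2.56 ± 0.236 and the transporters to 0.365 ± 0.104. By coupling, the 9 Gq/11-coupled receptors summed to 54.0 ± 8.56 RPKM, the 17 Gi/o-coupled to 47.8 ± 2.978 and the 6 Gs-coupled to 12.1 ± 0.881.

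**Figure D1:**
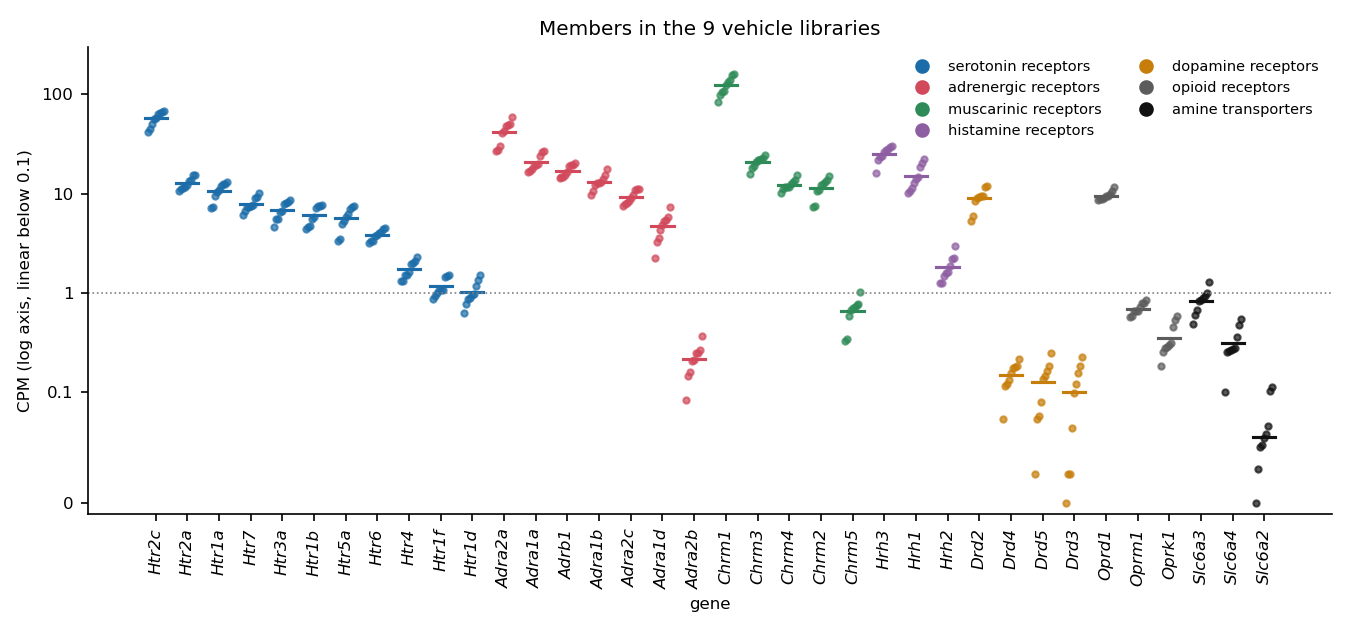
CPM of each of the 36 genes in the 9 vehicle libraries (points, sorted by value within a gene) with their mean (line), coloured by family. The y axis is logarithmic above 0.1 and linear below it, and the dotted line marks 1 CPM. Chrm1 lies highest, at 84.6 to 162 CPM, and Slc6a2 lowest, at 0.0 to 0.113 CPM.

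Chrm1, the Gq-coupled M1 muscarinic receptor of forebrain neurons (chr19:8663789-8683587, plus strand, GRCm38), was the highest member per length at 19.7 ± 4.302 RPKM. Its CPM in the 9 vehicles ran from 84.6 through a median of 126 to 162. Htr2c, the Gq-coupled 5-HT2C receptor, followed at 11.3 ± 1.897 RPKM and Adra2a, the Gi/o-coupled alpha-2A receptor, at 10.99 ± 2.981. These 3 genes made up 35.9 ± 1.06% of the summed RPKM of all members (SD, n = 9). The range of Chrm1 over the vehicles lay above that of Htr2c, and from Htr2c down to Slc6a2 every neighbouring pair in the order of RPKM overlapped in range. Hrh3, the Gi/o-coupled H3 receptor, stood at 9.32 ± 1.64 RPKM, Chrm4 (M4) at 8.60 with a range of 7.07 to 10.8, Adrb1 (beta-1) at 6.88 ± 0.997 and Drd2 (D2) at 5.80 ± 1.44. The other 19 expressed members lay between 4.81 RPKM (Chrm3) and 0.334 RPKM (Htr1d).

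Among serotonin receptors, Htr2a, the Gq-coupled 5-HT2A receptor bound by several antipsychotics, had a vehicle mean of 12.8 ± 1.83 CPM and Htr1a, the Gi/o-coupled 5-HT1A receptor, 10.6 ± 2.23 CPM (SD, n = 9). The Gs-coupled Htr7 stood at 7.92 ± 1.28 CPM, the channel Htr3a at 6.88 ± 1.42, the triptan target Htr1b at 6.124 ± 1.37, Htr5a at 5.68 ± 1.54 and Htr6 at 3.84 ± 0.496. Htr4 at 1.75 ± 0.357 CPM, Htr1d at 1.02 ± 0.285 and Htr1f, whose vehicles ran from 0.880 through 1.08 to 1.53, were close to the limit of 1 CPM. Among adrenergic receptors the Gq-coupled Adra1a, Adra1b and Adra1d stood at 20.8 ± 4.01, 13.2 ± 2.43 and 4.70 ± 1.55 CPM. The Gi/o-coupled Adra2a and Adra2c stood at 41.8 ± 11.3 and 9.33 ± 1.43 CPM, and Adrb1, the only beta receptor among the members, at 17.1 ± 2.48 CPM. Chrm3, Chrm4 and Chrm2 had means of 20.8 ± 2.598, 12.4 ± 1.61 and 11.5 ± 2.65 CPM. Hrh3 had 25.2 ± 4.45 CPM, Hrh1, the target of the classic antihistamines, 15.1 ± 4.51, and Hrh2, the target of famotidine, 1.84 ± 0.563. Drd2 had 8.98 ± 2.23 CPM and Oprd1, the delta opioid receptor, 9.59 ± 0.955.

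The 10 members under 1 CPM include targets of widely used drugs. Slc6a4, the serotonin transporter bound by the selective serotonin reuptake inhibitors, had 0.314 ± 0.133 CPM, from 4 to 19 reads a library. Slc6a3, the dopamine transporter, had 0.839 ± 0.234 CPM, and Slc6a2, the noradrenaline transporter, 0.0601 ± 0.0345 CPM with 0 to 5 reads. The mu opioid receptor Oprm1 stood at 0.699 ± 0.0954 CPM, with a vehicle range of 0.572 to 0.845, and the kappa receptor Oprk1 at 0.355 ± 0.136. Chrm5 had 0.658 ± 0.217 CPM, Adra2b 0.217 ± 0.0796, and the dopamine receptors Drd4, Drd5 and Drd3 0.151 ± 0.0434, 0.128 ± 0.0675 and 0.101 ± 0.0781. Drd3 had 0 to 9 reads a vehicle and Drd5 1 to 8, so a change in these genes was detectable only where it was large. In bulk RNA, fewer cells that express a gene and less RNA per cell cannot be told apart.

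8 members share exon bases with an annotated gene on the opposite strand (Htr1b, Adra1d, Chrm1, Chrm2, Hrh2, Hrh3, Drd5 and Oprm1). The strand setting of the counting is not given in the sources used here, so for these genes reads of both strands could not be told apart if strand was not used. The overlap was 852 exon bases for Htr1b and 1531 for Drd5, and 96 to 349 for the other 6.

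Genes that make, store and break down amines differed in the vehicle cultures. Of 8 genes for amine synthesis 1 (Th) was expressed, and of 4 genes for vesicle storage and choline uptake none was, with the vesicular monoamine transporter Slc18a2 at 0.198 ± 0.149 CPM. All 6 breakdown genes were expressed, among them the acetylcholinesterase gene Ache at 56.4 ± 17.4 CPM and Maoa at 50.3 ± 2.267. Downstream, 9 of 10 G protein alpha subunit genes, all 13 receptor kinase, arrestin and RGS genes and all 9 adenylyl cyclase and phospholipase C genes were expressed. Of the opioid peptide precursors, Penk stood at 50.5 ± 14.3 CPM, Pdyn at 3.123 ± 0.892 and Pomc at 0.416 ± 0.0868.

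Across the 218 drug libraries, the highest value of an expressed member was 2.42 to 8.12 times the lowest, with a median of 3.44 over the 26 members. The coefficient of variation over drugs was 12.7 to 36.7% (median 24.0%), and over the 9 vehicles 9.96 to 33.0% (median 20.5%). For 20 of the 26 it was larger over the drugs. Between 0.917% (Chrm2) and 46.3% (Htr1b) of the drug libraries lay outside the vehicle range, with a median of 27.1%. For 20 of the 26 more drugs lay below it than above. Some libraries fall outside a range of 9 without any drug effect. The same shares over all genes are not given, so these are not read as traits of the members. Part of this spread went with the run code, which held 3.83% (Htr1f) to 50.3% (Htr5a) of the variance of log2 CPM, with a median of 33.3% over the 26 members. Among the vehicles themselves, vehicle 2 gave the lowest value of 11 expressed members and vehicle 8 the highest value of 10.

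The 26 highest values came from 19 drugs and the 26 lowest from 14. Fenofibrate, a fibrate lipid-lowering drug, held the lowest value of 5 expressed members: Htr2a at 3.678 CPM, Htr7 at 3.51, Htr1f at 0.420, Chrm2 at 6.05 and Adra2a at 23.6. It also held the highest value of Htr5a, at 12.9 CPM. Nilotinib, a tyrosine kinase inhibitor, held the lowest values of Chrm1 (41.1 CPM) and Hrh3 (8.82 CPM). Doxepin held the lowest of Adra1b, Hrh1 and Htr5a (5.594, 6.91 and 1.71 CPM), and the lipase inhibitor Orlistat the lowest of Drd2, Chrm3 and Chrm4 (2.44, 12.4 and 7.53 CPM). Formoterol, a beta-2 agonist, held the lowest values of Htr1b (2.03 CPM) and Htr3a (2.58 CPM). Oxaprozin held those of Htr1a (3.24 CPM) and Hrh2 (0.718 CPM), and Leucovorin Calcium Pentahydrate those of Htr2c (30.9 CPM) and Adra2c (5.487 CPM). Single lowest values were those of Levothyroxine for Adrb1 (10.6 CPM), Oxazepam for Adra1d (1.524 CPM), Vigabatrin for Adra1a (11.5 CPM) and Nortriptyline for Oprd1 (5.39 CPM). Tizanidine held that of Htr6 (1.91 CPM), Spironolactone that of Htr4 (0.827 CPM) and Ketoprofen that of Htr1d (0.467 CPM).

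At the upper end, Diflunisal held the highest values of Hrh3 (42.8 CPM), Adra2c (17.6 CPM), Oprd1 (14.8 CPM) and Htr6 (6.27 CPM). Luteolin held the highest of Chrm1 (203 CPM) and Chrm4 (18.2 CPM), and Formoterol the highest of Adra2a (92.5 CPM). Aminophylline, a theophylline salt that blocks adenosine receptors and phosphodiesterases, held the highest of Adrb1 (27.4 CPM) and Adra1d (8.76 CPM). The code-named compound CP-448187 held the highest of Htr2a (22.5 CPM) and Htr1b (16.5 CPM), and CE-326597 the highest of Chrm3 (33.2 CPM) and Htr3a (10.9 CPM). Of the others, Vigabatrin was highest for Htr1a (21.0 CPM), Nortriptyline for Adra1a (34.3 CPM), Nabumetone for Htr2c (76.6 CPM) and Sulfamethoxazole for Hrh1 (22.4 CPM). CP-610927-01 was highest for Drd2 (14.3 CPM), CP-945598 for Adra1b (17.8 CPM), Quercetin for Htr7 (10.5 CPM) and Allopurinol for Chrm2 (15.1 CPM). The lowest-level receptors had their highest values with Nifedipine (Htr4, 2.79 CPM), Mitoxantrone (Hrh2, 2.94 CPM), Acetylcysteine (Htr1f, 1.81 CPM) and Isosorbide Dinitrate (Htr1d, 1.64 CPM).

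**Figure D2:**
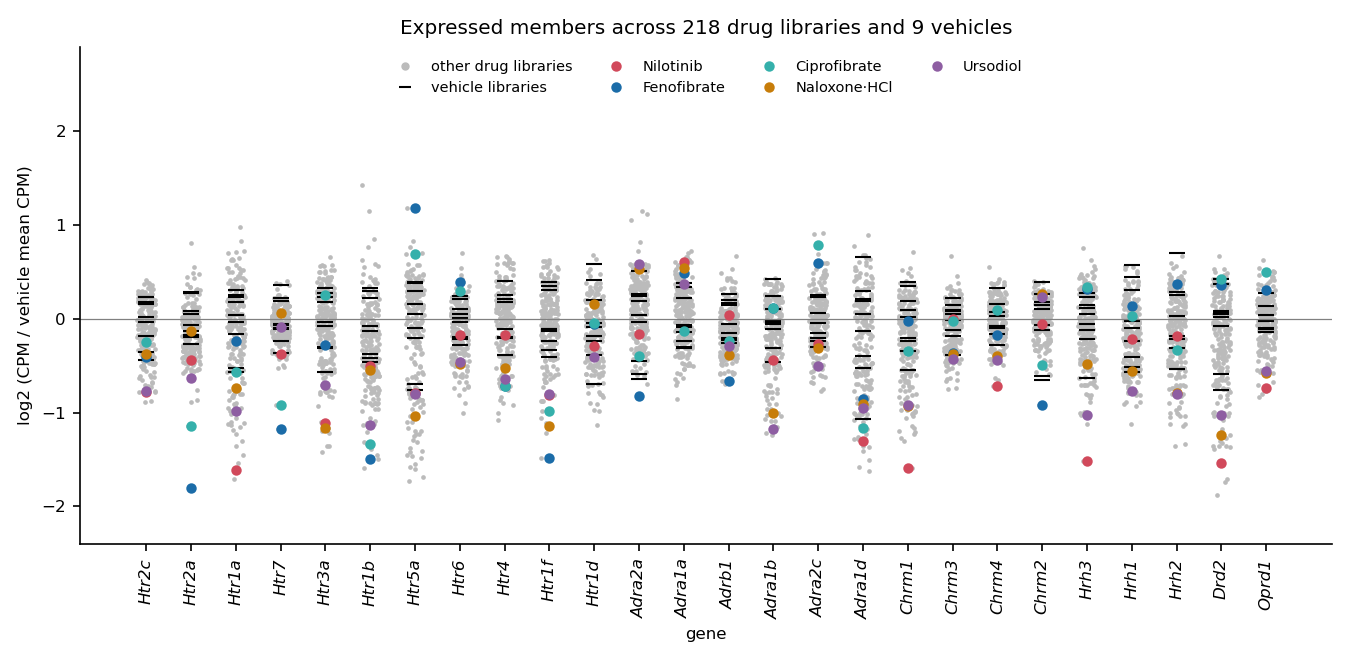
Log2 of CPM over the vehicle mean for the 26 expressed members, grouped by family. Grey points are drug libraries (1 each), black dashes the 9 vehicles, and coloured points the Nilotinib, Fenofibrate, Ciprofibrate, Naloxone·HCl and Ursodiol libraries. Most drug libraries lie within the spread of the vehicles or near it, and the Fenofibrate point is lowest for Htr2a, Htr7, Htr1f, Adra2a and Chrm2.

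Whether a drug changes the transcripts of its own target was examined in 12 classes of drugs with a shared aminergic or opioid target, giving 29 pairs of class and target gene. No target gene passed the threshold. In edgeR's quasi-likelihood test against the 9 vehicles 24 of the pairs could be tested, 0 had an adjusted p under 0.05 and 4 an unadjusted p under 0.05. In a second edgeR model over all libraries, with run code as a term and the vehicles and drugs of no class as reference, 28 could be tested, 0 passed and 3 had an unadjusted p under 0.05. DESeq2 against the vehicles also called 0. These 2 models share libraries. In 11 of the 12 classes no gene at all passed in either edgeR model (0.0% of the genes tested), and in the opioid antagonists 0.0% passed against the vehicles.

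The 10 beta blockers gave the narrowest interval against the rest of the screen. Adrb1, their target, had 12.2 CPM in the lowest library (Nadolol), a median of 15.3 and 24.7 in the highest (Metoprolol Tartrate), beside 14.3, 16.5 and 20.6 in the vehicles. The groups overlapped, with 6 of the 10 drugs inside the vehicle range. The log2 fold change was -0.08 ± 0.116 (SE) against the vehicles and -0.02 against the rest of the screen, with a 95% interval of -0.15 to 0.11. Hrh1 in the 9 H1 antihistamines ran from 8.04 (Hydroxyzine Dihydrochloride) through 12.4 to 19.4 CPM (Loratadine), with 7 inside the vehicle range of 10.2 to 22.6. Its log2 fold change was -0.22 against the vehicles and 0.05 against the rest of the screen (95% interval -0.15 to 0.25).

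The 7 antimuscarinics were compared over all 5 muscarinic receptors. Chrm1 ran from 70.7 (Dicyclomine) through 85.5 to 128 CPM (Tolterodine Tartrate), below the vehicle range of 84.6 to 162 in 3 of 7. Its log2 fold change was -0.48 ± 0.146 against the vehicles (edgeR adjusted p = 0.179) and -0.10 against the rest of the screen (-0.34 to 0.15). Without Tolterodine Tartrate the comparison with the vehicles passed for Chrm1 (edgeR adjusted p = 0.0462) and for 7 members in all, where 4.45% of all genes passed. DESeq2 called 2 members in the whole class, Htr2a and Htr1b, where 0.454% of all genes passed. Chrm2 stood at 0.09 against the rest of the screen (-0.05 to 0.23), Chrm3 at 0.01 (-0.14 to 0.16), Chrm4 at -0.01 (-0.16 to 0.14) and Chrm5 at 0.05 (-0.29 to 0.40). For 4 triptans, Htr1b had 3.96 to 4.81 CPM, with 2 of 4 below the vehicle range of 4.47 to 7.72. The log2 fold change of Htr1b was -0.48 ± 0.168 against the vehicles (edgeR adjusted p = 0.356) and 0.02 against the rest of the screen (-0.36 to 0.40). Htr1d and Htr1f both stood at -0.03 against the rest of the screen, and Htr3a with 4 antagonists of its channel at -0.06 (-0.38 to 0.27).

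Slc6a4 in the 6 selective serotonin reuptake inhibitors ran from 0.201 to 0.384 CPM, with all 6 inside the vehicle range. At this level the interval against the rest of the screen was wide, -0.73 to 0.30. It was wider with the 5 tricyclic antidepressants, -0.96 to 0.25, and Slc6a2 could not be tested there at 0.0 to 0.0646 CPM. In the 2 alpha-1 blockers Adra1a, Adra1b and Adra1d stood at 0.15, -0.33 and 0.17 on the log2 scale against the rest of the screen. In the 2 alpha-2 agonists Adra2a stood at 0.35 with an unadjusted p of 0.0529 (edgeR adjusted p = 0.851), Adra2b at -0.52 and Adra2c at -0.09. With the 2 dopamine agonists Drd2 stood at 0.25, Drd3 at -0.35 and Drd4 at 0.88 (0.12 to 1.65, edgeR adjusted p = 0.999). With Loxapine and Ziprasidone, which block D2 and 5-HT2A receptors, Drd2 stood at 0.14, Htr2a at 0.03 and Htr2c at 0.11, and all 6 library values lay inside the vehicle range.

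Both opioid antagonists had less Oprm1 than any vehicle, with Naloxone at 0.380 CPM and Naltrexone at 0.552 CPM. Of all 218 drug libraries 73 lay below the vehicle range of Oprm1. The log2 fold change was -0.59 ± 0.221 against the vehicles (edgeR adjusted p = 0.180) and -0.68 ± 0.284 against the rest of the screen (edgeR adjusted p = 0.0672). Oprd1 had 6.41 CPM with Naloxone, below the vehicles, and 8.77 CPM with Naltrexone, inside their range of 8.71 to 11.6. Its log2 fold change was -0.34 ± 0.135 and -0.43 ± 0.177 in the 2 models, with edgeR adjusted p of 0.183 and 0.0672. Oprk1 stood at -0.23 against the rest of the screen (-1.06 to 0.60). DESeq2 against the vehicles called 3 other members for the opioid antagonists and 6 for the tricyclic antidepressants, all falls, where 1.46% and 1.9% of all genes passed.

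**Figure D3:**
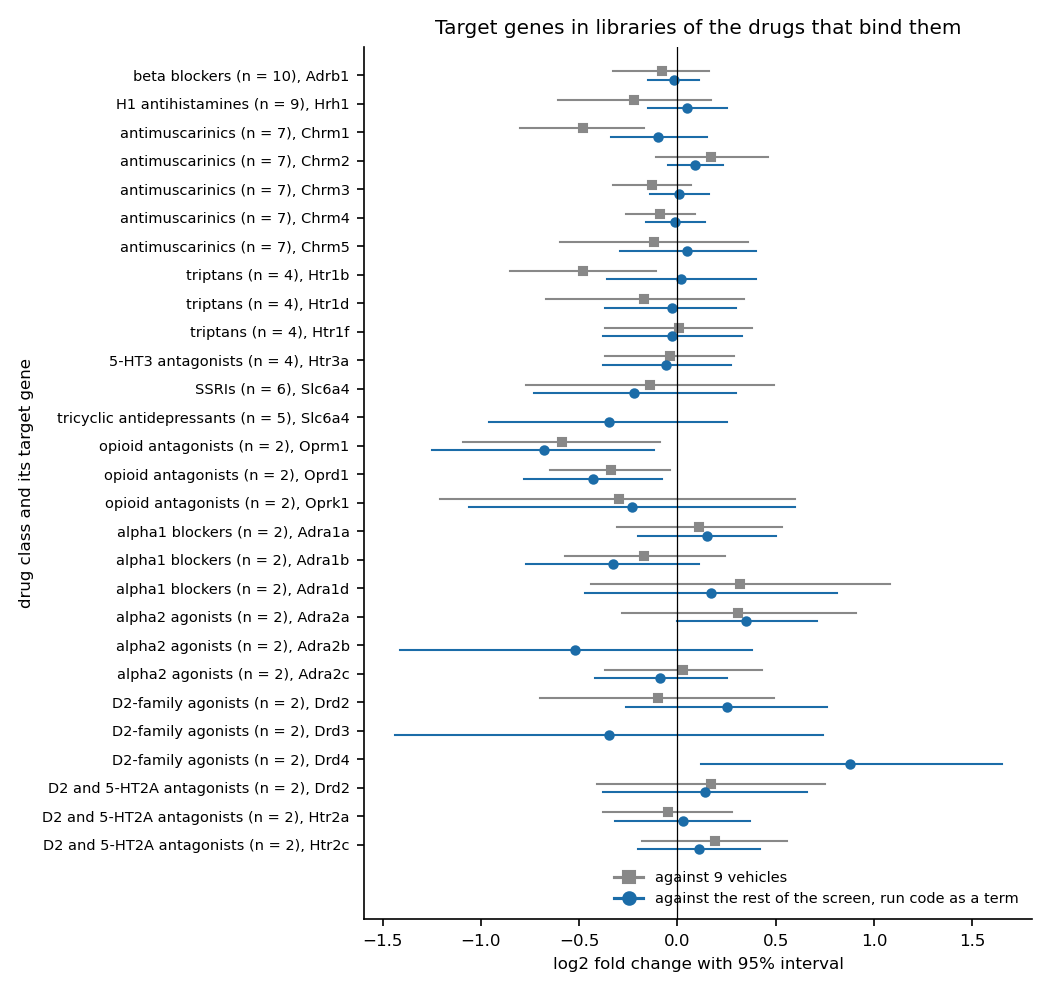
Log2 fold change (x axis) of 28 pairs of a drug class and its target gene (y axis, n drugs in brackets) with approximate 95% intervals, against the 9 vehicles (grey squares, 24 pairs) and against the rest of the screen with run code as a term (blue circles, 28 pairs). The intervals of Adrb1 with beta blockers and of the muscarinic receptors Chrm2, Chrm3 and Chrm4 are the narrowest, and 25 of the 28 blue intervals include 0.

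Single libraries of 12 drugs were read against 25 of their targets. Among them Carvedilol, Labetalol, Cyproheptadine and Doxepin also belong to the classes above. In 14 cases the value lay inside the vehicle range, in 9 below and in 2 above, and none of the 23 that could be tested passed in edgeR. Mirtazapine, which blocks alpha-2, 5-HT2, 5-HT3 and H1 receptors, was below the vehicle range for 5 of its 6 targets, such as Htr2a at 6.92 CPM and Htr3a at 3.86 CPM. Against other libraries with run code as a term the log2 fold changes of these 5 were -0.12 to -0.52 (limma adjusted p = 1.00 for each). Buspirone left Htr1a at 7.96 CPM, within 7.15 to 13.1, Famotidine left Hrh2 at 1.79 CPM, within 1.27 to 3.001, and PF-04995274-00, a 5-HT4 agonist, left Htr4 at 1.93 CPM, within 1.33 to 2.31.

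Each of the 218 drug libraries was also compared with the 9 vehicles across all genes in edgeR, where the lone library is assumed to vary like the vehicles. Of 7023 tested pairs of member and drug 12 passed (0.171%), beside 0.12% of all gene and drug pairs. All 12 were falls, in the libraries of 3 drugs: Nilotinib, Fenofibrate and Ciprofibrate. A vehicle compared in the same way with the other 8 gave 0 member calls in edgeR and 0 in DESeq2. Only 9 such comparisons exist, and at 0.171% of pairs few calls could arise in them. The 0 in edgeR therefore tells little about the calls with drugs.

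Fenofibrate was followed by falls of 4 serotonin receptor genes, where 10.6% of all genes tested passed and 4.78% passed as falls. Htr2a had 3.678 CPM, against 10.6 in the lowest vehicle, a median of 12.3 and 15.6 in the highest. Htr7 had 3.51 CPM (vehicles 6.167, 7.58 and 10.1), Htr1b 2.172 CPM (4.47, 5.81 and 7.72) and Htr1f 0.420 CPM (0.880, 1.08 and 1.53). All 4 values lay below every vehicle and below each of the 31 other libraries of the same run code. Of all 218 drug libraries 76 lay below the vehicle range for Htr2a, 14 for Htr7, 84 for Htr1b and 36 for Htr1f. The log2 fold change was -1.80 ± 0.238 (SE) for Htr2a (edgeR adjusted p = 0.00131), -1.18 ± 0.260 for Htr7 (0.0171), -1.49 ± 0.364 for Htr1b (0.0264) and -1.48 ± 0.394 for Htr1f (0.0382). The call of Htr1f was lost without vehicle 5 or vehicle 9 and with no filter on low counts. The 4 genes couple to Gq/11 (Htr2a), Gs (Htr7) and Gi/o (Htr1b and Htr1f). Over the 32 members tested the median was -0.26, with 20 negative.

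Ciprofibrate, another fibrate, had 1 call, at 0.723% of all genes passing and 0.207% as falls. Htr2a had 5.81 CPM, below every vehicle and below the 15 other libraries of its run code, which holds no vehicle. Its log2 fold change was -1.15 ± 0.222 with an edgeR adjusted p of 0.04996. The call was lost with RLE factors, with no filter, and without any 1 of vehicles 2 to 9. The labels give no dose for either fibrate and they share the 9 vehicles, so the values stand side by side only. With Ciprofibrate Htr7 had 4.21 CPM, Htr1b 2.42 and Htr1f 0.594, each below the vehicle range, at log2 fold changes of -0.92, -1.34 and -0.99 that did not pass. DESeq2 against the vehicles gave it 3 member falls and 1 rise, where 242 of 21859 genes (1.1%) passed as falls and 1.35% as rises.

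In limma with run code as a term, with every other library as reference, Fenofibrate had 11 member falls and 2 rises, where 14.6% of all genes passed as falls and 13.4% as rises. Ciprofibrate had 4 falls, where 2.28% of all genes passed as falls. Clofibrate, Bezafibrate and Gemfibrozil, the other fibrates screened, had no member call in that model or in edgeR against the vehicles. In the limma model the falls with Ciprofibrate were Htr2a (-1.10), Htr7 (-0.84), Htr1b (-1.51) and Htr4 (-0.98). Fenofibrate gave -1.84, -1.23, -1.62 and -0.88 for these 4. How many of all genes passed with both drugs is not given, so no overlap is read from these values. Also lower with Fenofibrate in that model were Chrm2 (-0.84), Htr1f (-1.47), Chrm5 (-1.26), Adra2a (-0.82), Adrb1 (-0.56), Slc6a4 (-1.56) and Htr2c (-0.58). Of these, Chrm5 and Slc6a4 were low, at 0.296 and 0.0987 CPM, beside 0.327 and 0.101 CPM in the lowest vehicle of each. The 2 rises with Fenofibrate were Htr5a at 1.2 (12.9 CPM, vehicles 3.355 to 7.45) and Adra1a at 0.66 (29.1 CPM, vehicles 16.7 to 27.0).

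Cell type markers differed in the Fenofibrate library. The 7 inhibitory neuron markers summed to 1214 CPM, below the vehicle range of 1666 to 2870, with Gad2 (-1.39) and Slc32a1 (-0.72) passing as falls. The 6 general neuron markers summed to 3575 CPM (vehicles 3922 to 5435) and the 6 astrocyte markers to 8144 CPM (vehicles 5666 to 7279), while the 6 excitatory markers, at 1893 CPM, lay inside 1228 to 2496. The 4 precursor markers of oligodendrocytes summed to 426 CPM (vehicles 230 to 381), the highest of all drug libraries. With Ciprofibrate all of these sums lay inside the vehicle ranges. The part of cell composition in the receptor values was not tested. Of the surrounding genes 2 passed with Fenofibrate, Maoa at 0.29 and Pomc at 1.44.

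The starts of the 4 serotonin receptor genes are shown since these genes fell together. Each line is the RefSeq sequence (GRCm38.p6) upstream of the gene start, at most 250 bases, cut where the GENCODE gene model begins earlier, read 5′ to 3′ on the gene's strand. Capitals mark the GC box GGGCGG and the half-site TGACG of the cyclic AMP response element, on either strand.
Htr2a (chr14:74640624-74640839, plus strand): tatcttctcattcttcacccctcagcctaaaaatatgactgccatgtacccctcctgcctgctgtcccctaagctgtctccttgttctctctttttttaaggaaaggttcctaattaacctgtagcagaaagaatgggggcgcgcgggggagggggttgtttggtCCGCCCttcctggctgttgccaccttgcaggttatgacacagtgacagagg
Htr7 (chr19:36057508-36057610, minus strand): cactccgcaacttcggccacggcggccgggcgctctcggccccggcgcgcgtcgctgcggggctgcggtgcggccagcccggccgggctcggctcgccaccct
Htr1b (chr9:81633833-81634082, minus strand): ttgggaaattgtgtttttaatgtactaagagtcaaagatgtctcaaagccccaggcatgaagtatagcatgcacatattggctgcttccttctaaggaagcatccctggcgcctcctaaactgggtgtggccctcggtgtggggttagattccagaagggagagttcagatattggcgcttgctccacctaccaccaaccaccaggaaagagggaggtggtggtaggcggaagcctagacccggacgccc
Htr1f (chr16:65105855-65106034, minus strand): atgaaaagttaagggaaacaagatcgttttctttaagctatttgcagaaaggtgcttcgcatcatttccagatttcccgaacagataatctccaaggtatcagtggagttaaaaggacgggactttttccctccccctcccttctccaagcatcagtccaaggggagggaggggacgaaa

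The 4 windows differed in base composition. Over the whole 250 bases Htr7 had 82.0% GC and 41 CpG, Htr2a 52.8% and 4, Htr1b 52.4% and 6, and Htr1f 49.2% and 7, beside a median of 52.4% GC and 6 CpG over all windows in the table. The DR1 direct repeat of AGGTCA is an element bound by PPAR and RXR (fibrates bind PPAR alpha). Its exact letters were found on neither strand in any of the 38 windows of the 29 members with an entry. They were in 11 of all 32851 windows (0.0335%), too rare for their absence from 38 windows to be informative. The GC box was present in 57.9% of member windows and 32.7% of all, TGACG in 10.5% and 17.8%, and the TATA letters TATAAA in 2.632% and 12.4%. These shares count whole windows. The window of Htr7 holds 1 TGACG half-site, read as CGTCA, in the part not printed above. The full element TGACGTCA, which contains TGACG, was in 0.0% and 1.55%. A match is a description of letters and not a site of binding.

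With Nilotinib 7 members fell, where 12.2% of all genes tested passed and 6.02% passed as falls. Chrm1 had 41.1 CPM (vehicles 84.6, 126 and 162), Hrh3 8.82 CPM (16.3, 26.1 and 30.6), Htr1a 3.48 CPM (7.15, 10.95 and 13.1) and Drd2 3.099 CPM (5.302, 9.33 and 12.1). Chrm4 had 7.56 CPM (10.2, 11.8 and 15.6), Oprd1 5.769 CPM (8.71, 9.41 and 11.6) and Htr3a 3.194 CPM (4.66, 6.70 and 8.65). All 7 lay below every vehicle, as did 21 (Hrh3) to 59 (Oprd1) of all 218 drug libraries. Within the run code, which holds 1 vehicle, Chrm1 and Hrh3 were below the 31 other libraries, while 1 library was lower for Chrm4 and 2 were lower for each of Htr1a, Drd2, Oprd1 and Htr3a.

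The log2 fold changes with Nilotinib were -1.61 ± 0.339 for Chrm1, -1.54 ± 0.293 for Hrh3, -1.63 ± 0.351 for Htr1a, -1.56 ± 0.413 for Drd2, -1.13 ± 0.326 for Htr3a, -0.76 ± 0.166 for Oprd1 and -0.74 ± 0.194 for Chrm4. The edgeR adjusted p ran from 0.0106 (Hrh3) to 0.0475 (Htr3a). With run code as a term limma called 5 members, all falls, where 11.3% of all genes passed as falls: Hrh3 at -1.16, Chrm1 at -1.08, Chrm4 at -0.57, Htr1a at -1.17 and Htr1f at -0.91. Oprd1 (-0.56), Drd2 (-1.0) and Htr3a (-0.82) did not pass in that model. In edgeR against the vehicles the call of Htr3a was lost with RLE factors and with no filter on low counts. Leaving out 1 vehicle at a time there, Chrm4 was lost without vehicle 5, 6, 7 or 9. Drd2 was lost without 4, 5, 6, 7 or 9 and Htr3a without any of vehicles 4 to 9. Over the 32 members tested the median was -0.49 with 29 negative, beside -0.01 over all genes. Most members were also negative against the vehicles in other libraries. With Ursodiol 29 of 32 were (median -0.68) and with Naloxone 27 of 32 (median -0.53). With run code as a term Nilotinib had 24 of 34 negative and a median of -0.22.

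Genes downstream of the receptors passed as falls too: Adcy5 (-0.92), Adcy1 (-0.81), the olfactory-type Gs subunit Gnal (-0.76), Grk6 (-0.44), Grk3 (-0.34) and Arrb1 (-0.31). Among breakdown genes the histamine methyltransferase gene Hnmt (-0.42) passed. By list, 1 of 10 G protein subunit genes and 3 of 13 kinase, arrestin and RGS genes fell. So did 2 of 9 cyclase and phospholipase genes and 1 of 6 breakdown genes. In each list 0 rose, and of all genes tested 6.02% passed as falls. The 6 excitatory markers summed to 858 CPM (vehicles 1228 to 2496), with Camk2a passing at -1.19, the 6 general neuron markers to 3270 CPM (3922 to 5435) and the 4 precursor markers of oligodendrocytes to 110 CPM (230 to 381). Inhibitory markers, at 2030 CPM, and astrocyte markers, at 6337 CPM, lay inside the vehicle ranges. Their part in the receptor values was not tested.

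**Figure D4:**
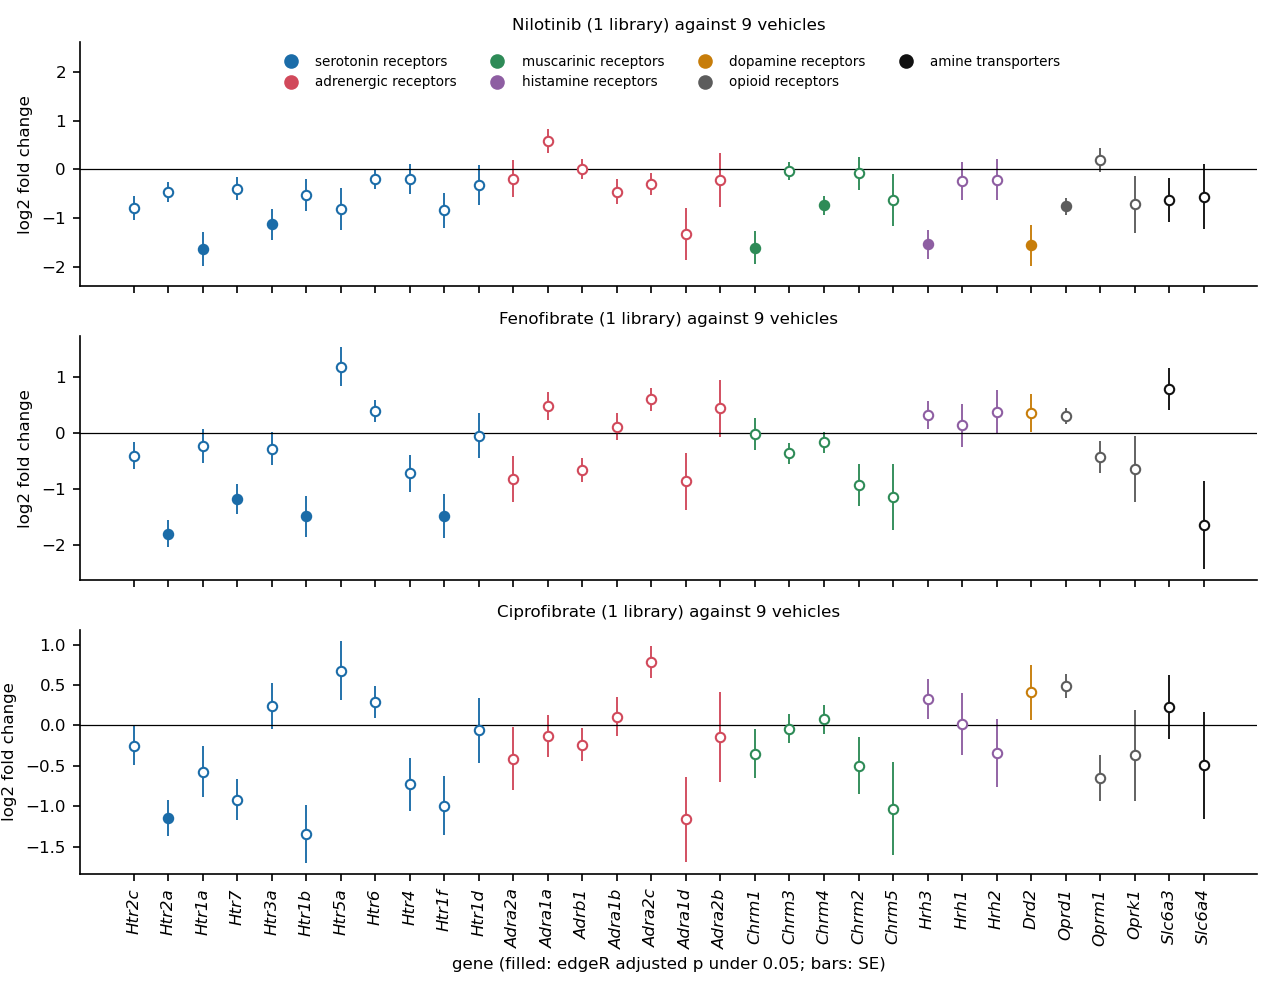
Log2 fold change with its SE for the 32 members tested, by family, in the Nilotinib, Fenofibrate and Ciprofibrate libraries against the same 9 vehicles. Filled points passed in edgeR: 7 with Nilotinib over 5 families, 4 with Fenofibrate, all serotonin receptors, and Htr2a with Ciprofibrate.

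The model with run code as a term called 43 of 7412 pairs of member and drug, in 9 drugs, 37 of them falls. That is 0.580% of member pairs, beside 0.497% of all gene and drug pairs. Beyond the 3 drugs above, Aminophylline had Adrb1 higher at 0.86 ± 0.194 (limma adjusted p = 0.00155), with 27.4 CPM above all 31 other libraries of its run code, where 5.05% of all genes passed. CP-448187 had Htr1b at 1.44, Htr2a at 0.99 and Oprd1 at -0.80, in a run code with no vehicle, where 636 of 15939 genes passed. For Htr1b its 16.5 CPM stood above the vehicle range of 4.47 to 7.72 and above the other 15 libraries of the run. CE-326597 had Chrm3 at 0.64 and Htr1d at -1.04, where 3.46% of all genes passed. Nortriptyline had Oprk1 at 0 reads, beside 7 to 20 reads in the vehicles, where 0.0314% of all genes passed. None of these passed in edgeR against the vehicles.

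Naloxone and Ursodiol had 7 falls each in the model with run code, where 4.3% and 8.55% of all genes passed as falls, and 0 against the vehicles in edgeR, where 0.0% passed. With Naloxone they were Htr3a, Drd2, Adra1b, Htr1f, Chrm1, Htr5a and Oprd1 (-0.68 to -1.36), and with Ursodiol Adra1b, Htr2c, Hrh3, Chrm4, Chrm1, Htr1a and Drd2 (-0.56 to -1.12). Chrm1 had 65.2 CPM with Naloxone and 65.3 CPM with Ursodiol, below the vehicle range of 84.6 to 162. In both libraries excitatory markers summed to less than in any vehicle (926 and 1052 CPM) and astrocyte markers to more (8036 and 8286 CPM). Activity-regulated genes summed to 137 CPM with Naloxone, below the vehicles, and to 234 CPM with Ursodiol, inside their range. The part of these in the receptor values was not tested.

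The 2 opioid antagonists together had 9 member calls against the rest of the screen, where 19.4% of all genes passed, 8.0% as falls and 11.4% as rises. Adra1b (-0.77), Htr3a (-0.85), Htr1f (-0.85), Drd2 (-0.80), Chrm4 (-0.40) and Htr2c (-0.43) fell. Drd3 (1.30), Adra2a (0.48) and Adra1a (0.45) rose, and all 9 had an edgeR adjusted p of 0.0344 to 0.0492. Drd3 rests on few reads, at 0.378 CPM with Naltrexone and 0.177 CPM with Naloxone. The Naloxone value lay inside the vehicle range of 0.0 to 0.227 CPM. There were 0 calls without Naloxone and 0 without the run-code term, and without Naltrexone those of Htr1f and Drd3 were lost (limma adjusted p = 0.0639 and 0.0645). In the same model 5 of 6 excitatory markers and 4 of 6 general neuron markers fell and 5 of 6 astrocyte markers rose. The part of these in the receptor values was not tested.

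Benzodiazepines, thyroid hormones, glucocorticoids and dihydropyridines have no aminergic target. They were taken because earlier results had shown them to change these cultures, so they are not an independent choice. The 5 benzodiazepines, which strengthen GABA-A receptor inhibition, were followed by falls of 2 adrenergic receptor genes. There 3.86% of all genes passed and 1.91% passed as falls. Adrb1 (chr19:56722199-56733113) had 12.9 CPM with Clonazepam, 12.2 with Lorazepam, 11.5 with Oxazepam, 11.4 with Temazepam and 10.8 with Triazolam. All 5 lay below the lowest of the 9 vehicles, 14.3 CPM, and below the median of their own run code. Of all 218 drug libraries 63 lay below that vehicle. On the log2 scale the change was -0.54 ± 0.099 (edgeR adjusted p = 0.0116), and the fall passed without any 1 of the drugs. Adra1d had 2.64, 2.1, 1.524, 2.32 and 2.01 CPM in the same order, beside 2.246 to 7.43 in the vehicles, so 3 of the 5 lay below the vehicle range, as did 18 of all drug libraries. Its log2 fold change was -1.14 ± 0.245 (edgeR adjusted p = 0.0219), lost without Lorazepam, Temazepam or Triazolam.

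Against the rest of the screen, where 12.3% of all genes passed, 6.06% as falls and 6.23% as rises, the benzodiazepines had 5 member calls. Adrb1 fell by 0.44 on the log2 scale (SE 0.098, edgeR adjusted p = 0.000643), Adra1d by 0.89, Adra2b by 1.2 and Htr1f by 0.57, and Htr6 rose by 0.33. Adra2b rests on few reads, at 0.0268 to 0.159 CPM beside 0.0931 to 0.367 CPM in the vehicles, ranges that overlapped. Leaving out 1 drug at a time, fitted in limma, 1 to 5 members passed, and Adrb1 passed each time. The activity-regulated genes, which neuronal firing induces, moved in the same libraries. Their sum was 95.5 to 131 CPM with the benzodiazepines and 172 to 1403 CPM in the vehicles, and 10 of 12 passed as falls against the vehicles, where 1.91% of all genes did, with a median of -2.93. Against the rest of the screen 12 of 12 passed as falls, with a median of -2.34. Of the surrounding genes Rgs4 (-1.42), Rgs2 (-1.31), Rgs8 (-0.82) and Adcy8 (-0.90) also fell against the vehicles. Excitatory markers summed to 1083 to 2378 CPM and astrocyte markers to 5517 to 7303 CPM, ranges that overlapped those of the vehicles. The part of activity in the Adrb1 and Adra1d values was not tested.

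The stretch upstream of Adrb1 is shown because Adrb1 was the member below every vehicle with all 5 drugs (RefSeq, GRCm38.p6, 5′ to 3′). Its 250 bases hold 1 TGACG half-site and 1 GC box (in capitals), no TGACGTCA, 74.0% GC and 24 CpG.
Adrb1 (chr19:56721867-56722116, plus strand): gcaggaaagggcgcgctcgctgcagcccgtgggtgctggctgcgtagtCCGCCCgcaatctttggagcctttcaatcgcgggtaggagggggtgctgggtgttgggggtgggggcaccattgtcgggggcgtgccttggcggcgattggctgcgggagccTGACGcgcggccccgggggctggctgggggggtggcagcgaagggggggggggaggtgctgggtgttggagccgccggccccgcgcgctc

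The 2 thyroid hormones, which act through nuclear receptors, were followed by a fall of Htr2a against the vehicles, where 1.3% of all genes passed and 0.339% passed as falls. Levothyroxine had 7.57 CPM and Liothyronine 7.04 CPM, both below the vehicle range of 10.6 to 15.6, as were 76 of all 218 drug libraries. Against the vehicles Htr2a changed by -0.81 ± 0.153 on the log2 scale (edgeR adjusted p = 0.0275). Against the rest of the screen it was -0.47 (edgeR adjusted p = 0.289). There, where 2.36% of all genes passed and 2.06% passed as rises, Adra2a was higher by 0.74 ± 0.178 (edgeR adjusted p = 0.00408), with 90.7 and 86.6 CPM beside a vehicle range of 26.9 to 59.5, and Chrm3 by 0.48 ± 0.133 (0.0237). Against the vehicles Adra2a stood at 1.08 (edgeR adjusted p = 0.0619). DESeq2 called 8 members there, 7 falls and 1 rise, where 4.2% of all genes passed. The edgeR calls of Htr2a, Adra2a and Chrm3 were lost with 1 library left in the class, whose spread is then taken from the other libraries. Both hormone libraries carry the same run code, which holds 1 vehicle. The serotonin synthesis gene Tph2 rose by 1.36 against the vehicles, from a low level of 0.294 CPM in their mean (range 0.162 to 0.372). Activity-regulated genes summed to 151 and 167 CPM in these libraries, below the vehicle range. Excitatory markers summed to 1149 and 1314 CPM and astrocyte markers to 7200 and 7577 CPM, so that 1 of the 2 libraries lay outside the vehicle range in each case. The part of these in the receptor values was not tested.

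**Figure D5:**
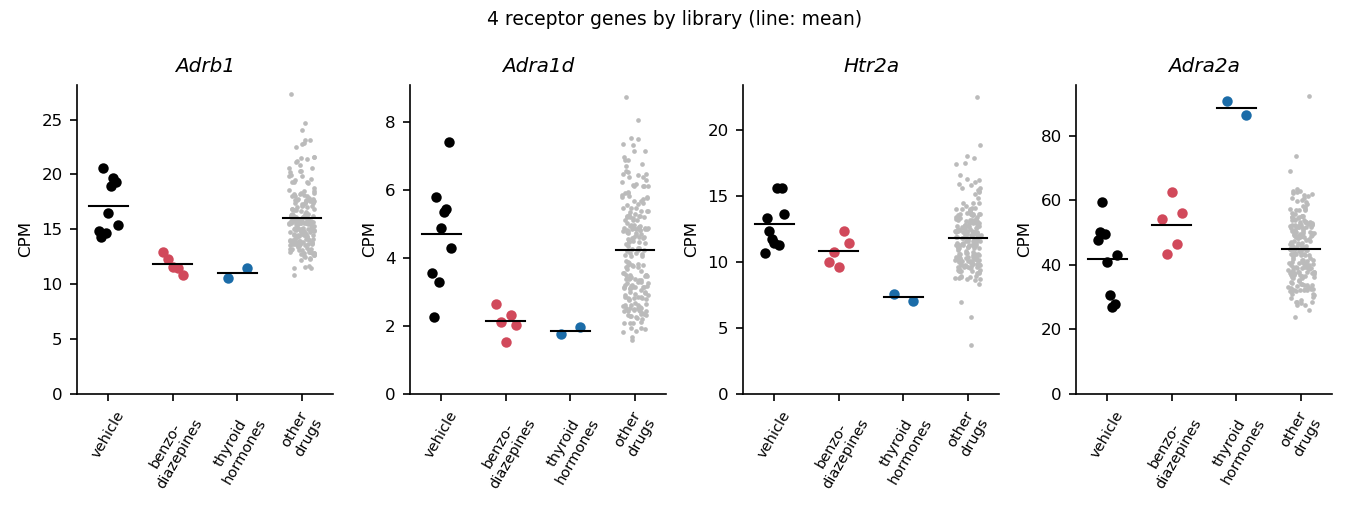
CPM of Adrb1, Adra1d, Htr2a and Adra2a in the 9 vehicles (black), 5 benzodiazepines (red), 2 thyroid hormones (blue) and the other drugs (grey), with group means as lines and axes that start at 0. Adrb1 lies at 10.8 to 12.9 CPM with benzodiazepines, below all vehicles, and Adra2a at 86.6 and 90.7 CPM with thyroid hormones, above all vehicles.

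The 3 glucocorticoids had 1 member call against the rest of the screen, where 1.29% of all genes passed. Adra2a had 73.8 CPM with Dexamethasone, 53.3 with Cortisone Acetate and 47.4 with Betamethasone, the last 2 inside the vehicle range. The log2 fold change was 0.52 ± 0.146 (edgeR adjusted p = 0.0384), and the call was lost without any 1 of the 3 drugs and without the run-code term. Against the vehicles 0 members passed, with 1 at an unadjusted p under 0.05 in edgeR and 0.0134% of all genes passing. The 3 dihydropyridine calcium channel blockers had 0 member calls in both edgeR models, where 0.0% and 0.0125% of all genes passed, with 1 and 5 members at an unadjusted p under 0.05.

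Drugs that raise amine or acetylcholine levels without binding a member were read the same way. The 4 monoamine oxidase inhibitors and the 3 cholinesterase inhibitors had 0 member calls in both edgeR models, with 0 to 1 members at an unadjusted p under 0.05 and 0.0% of all genes passing. DESeq2 against the vehicles gave 0 member calls for both.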

How the data were processed

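The deposited table holds read counts per gene for each library, whole numbers that the authors did not normalize, with gene length. The build was mm10, and edgeR 3.10.5, Subread 1.4.6, STAR 2.4.0 and limma are listed with no role for each, per the submitters' processing notes. Libraries were made with a stranded mRNA kit, per the labels' protocols. The 227 libraries, 218 of a drug and 9 of the vehicle, were grouped by the agent in the labels. Totals ranged from 22019878 to 65189712 counts. A gene with few reads has a wide interval whatever the depth. Members, gene lists and the classes with no aminergic target were chosen with earlier results of these data known.

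CPM used TMM-scaled totals (factors 0.939 to 1.06) and RPKM the deposited gene length. A count of 1 was added before log2 for the share of variance that went with run code. Fold changes are those of each model at its default settings. edgeR 4.0.16 in R 4.3.3 gave the tests (quasi-likelihood, filterByExpr, Benjamini-Hochberg over all genes tested, threshold 0.05). Each drug and each of 18 drug classes was compared with the 9 vehicles. The classes were also fitted in 1 model over the 227 libraries, with run code as a term and the vehicles and drugs of no class as reference. The 95% intervals are approximate, from the SE and the residual degrees of freedom.

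Alternatives were RLE factors, DESeq2 1.42.0, no filter on low counts, limma 3.58.1 (voom) over all libraries with run code, no run-code term, and leaving out single vehicles or drugs. The programs were tested on simulated counts. Named were all 36 members, with each member's highest and lowest drug library, every class target, every pair of member and drug past the threshold, and in other lists up to 3 genes each way per list and class. Surrounding genes that passed with Nilotinib and Fenofibrate, and single results of the model with run code, were named after their values were seen. Coordinates are GENCODE's for GRCm38, the build of mm10. No protein sequences were used here, and no coordinates are given for Htr4.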

Additional observations from a re-analysis of the deposited data

Results flagged for a closer look

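Of 50 groups of 4 to 10 libraries checked for a library far from the others, 2 held one, and chance alone marks about 1 in 20 groups. Adrb1 in the 10 beta blockers was highest with Metoprolol Tartrate, at 24.7 CPM. That value also lay above the 7 other libraries of its run code, which had 16.9 to 24.0 CPM and included no vehicle. Chrm1 in the 7 antimuscarinics was highest with Tolterodine Tartrate, at 128.0 CPM. The 31 other libraries of its run code had 65.3 to 162 CPM with a median of 119, and 18 of them were lower.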

How the results depend on the processing

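Counts of members past the threshold moved by more than 1.5 times in 42 of 345 recomputations. Over the single drugs, 12 pairs in 3 drugs became 89 in 15 with DESeq2 (1.134% of member pairs, 0.262% of all pairs) and 43 in 9 with limma and run code (0.580% and 0.497%). Ciprofibrate (1) gave 0 with RLE factors, 0 with no filter, 4 with DESeq2, 4 with limma and 0 to 1 without 1 vehicle. Fenofibrate (4) gave 13 with limma, and Nilotinib (7) gave 4 to 8 without 1 vehicle. With DESeq2 against the vehicles, the antimuscarinics (0) gave 2, the opioid antagonists (0) 3, the tricyclic antidepressants (0) 6 and the thyroid hormones (1) 8. Leaving out 1 library gave 0 to 7 for the antimuscarinics, 1 to 2 for the benzodiazepines (2) and 0 to 0 for the thyroid hormones. Against the rest of the screen, no run-code term gave 0 for the glucocorticoids (1) and 0 for the opioid antagonists (9). Leaving out 1 drug there gave 0 to 1 and 0 to 11 for these 2 classes, 1 to 5 for the benzodiazepines (5) and 0 to 2 for the thyroid hormones (2). The cause was not tested. The share of all genes passing moved between fits too, as from 0.0% to 4.45% for the antimuscarinics without Tolterodine Tartrate. That share is not given for every refit here, so these counts are not read as particular to the members. For single genes, 623 recomputed values kept their side of the threshold, 82 fell short of it, 1 newly passed (Chrm1 with antimuscarinics, above) and 0 reversed where a value passed, while 37 of 550 values changed sign where neither passed. No paired analysis was possible because only the vehicles carry replicate numbers.

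Each drug has 1 library, so its test takes the spread from the vehicles. Members under 1 CPM rest on few reads, and run codes without a vehicle cannot be told apart from their drugs in the comparisons with the vehicles.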
